A study of Mus musculus with 16 samples.

Results

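The secreted Wnt antagonists are proteins that cells release to keep Wnt ligands from their receptors, and 10 of their genes, chosen by symbol, were followed among the 25054 genes of the count table. They are *Dkk1*, *Dkk2* and *Dkk3* of the Dickkopf family, *Sfrp1*, *Sfrp2*, *Sfrp4*, *Sfrp5* and *Frzb* of the secreted frizzled-related proteins, the Wnt inhibitory factor *Wif1*, and *Sostdc1*, a relative of sclerostin. All 10 are in the table. RNA was sequenced from 16 mouse osteosarcomas after removal of ribosomal RNA, and the values are reads counted per gene. The 8 tumors labeled KO came from 8 mice that carried OsxCreERT2+/- with floxed p53 (p53fl/fl), floxed Rb1 (Rb1fl/fl) and floxed Arid1a (Arid1afl/fl), and the 8 tumors labeled WT came from 4 mice with the same alleles except floxed *Arid1a*. All mice had received 400 μg of tamoxifen per gram at 1 month of age and were over 6 months old, of both sexes, when tumors were taken. In both groups, therefore, *Trp53* and *Rb1* were floxed, and an inducible Cre under the Osterix promoter, which is active in pre-osteoblasts, acts on the floxed alleles. Mouse N42 gave 4 of the WT tumors (right pelvis, right femur, left limb, left shoulder), mouse N43 gave 2 (spine, pelvis), and N215 (right hind limb) and N25 (lung) gave 1 each. No site is given for the KO tumors, which carry the names of the mice. The KO group is known here by its label: over the whole gene, *Arid1a* lay between 107 and 270 CPM (counts scaled to a common library size) in KO and between 125 and 236 CPM in WT, and counts per gene cannot separate the floxed exons from the rest.

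Wnt ligands bind a Frizzled receptor together with the co-receptors LRP5 and LRP6, which stabilizes beta-catenin and turns on target genes such as *Axin2*. Dickkopf proteins act on the co-receptors, while the frizzled-related proteins and WIF1 bind the ligands themselves. In bone this pathway drives osteoblast formation, and its antagonists are products of osteoblasts, chondrocytes and stromal cells, several of which are known to be silenced by promoter methylation in human cancers.

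The libraries differed in depth and in tissue content. The tumors labeled KO had between 1109487 and 15059640 counts (median 5367670), and the WT tumors between 7806160 and 16962329 (median 14828152). A count of 3, the floor used here, equals 0.203 to 6.69 CPM in KO and 0.146 to 0.340 CPM in WT, so a low level is seen less well in KO, least in Massa and Grilka. These floors and the intervals given for single tumors cover counting error only. The labeled tissue was checked with 9 osteoblast markers, whose summed level ran from 445 CPM in Prince to 42388 CPM in Grilka among the KO tumors and from 1846 CPM in the N25 lung tumor to 54727 CPM in the N42 left shoulder tumor. Of these markers 2 had 0 counts in Massa, 1 in Prince and 1 in the N215 tumor. Markers of other tissues were high in some tumors: 7 lung genes summed to 26393 CPM in the N25 tumor and 11850 CPM in Massa, 8 skeletal muscle genes to 67166 CPM in Montana and 120829 CPM in Oregon, 9 salivary gland genes to 13566 CPM in Prince, and 6 liver genes to 1317 CPM in Zelda.

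The list was set around *Dkk3* with the difference between KO and WT already known. Levels by genotype are therefore given as a description, without p-values for the 10 genes. The scaling to CPM used TMM library sizes, and fold changes are log2 values, KO minus WT, with the standard error (SE) of edgeR's quasi-likelihood fit over 15413 genes. That fit kept 7 of the 10 antagonists, and *Dkk1*, *Sfrp5* and *Sostdc1* fell under its filter on low counts. Of all genes tested, 4.01% had an adjusted p-value under 0.05, 2.15% being lower in KO. Of the 7 antagonists 1, *Dkk3*, was past this threshold, and nothing is read from that count because the same contrast chose the list. Their log2 fold changes had a median of −2.18, against 0.10 over all genes tested, with 6 below 0 (44.1% of all genes tested) and the same 6 at −1 or less (9.02% of all). Nothing is read from these values either, for the same reason. In bulk RNA, fewer cells of a kind and less RNA per cell cannot be told apart.

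*Dkk3* was the antagonist with the most even level within each group, and the 1 of the 10 whose KO and WT values did not overlap. Dkk3 is the divergent Dickkopf protein, which does not act on LRP6 as Dkk1 does. Its gene lies on chromosome 7 of GRCm38, from 112116017 to 112159057 on the minus strand. In the WT tumors it lay between 39.0 CPM in the N25 lung tumor and 104 CPM in the N42 left shoulder tumor, with a median of 68.1 CPM. The other WT tumors had 98.7 CPM in the N42 right pelvis, 87.3 CPM in the N43 spine, 78.6 CPM in the N215 hind limb, 57.6 CPM in the N42 left limb, 53.3 CPM in the N42 right femur and 47.0 CPM in the N43 pelvis. Every WT site thus held *Dkk3*, and the highest and lowest differed 2.67-fold.

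The tumors labeled KO had 3.82 CPM of *Dkk3* in Ohio, 4.85 in Montana, 5.31 in Oregon, 7.47 in Prince, 8.55 in Zelda, 9.29 in Medusa, 12.1 in Grilka and 17.8 in Massa. All 8 were below all 8 WT tumors, which was so for 0.208% of the genes tested (0.415% had no overlap in either direction), and nothing is read from this for the reason given above. The 2 highest KO values rest on 8 counts in Massa and 9 in Grilka. In Massa the exact Poisson interval (95%) ran from 7.70 to 35.2 CPM. It covers counting error only and spans the values of Grilka, Medusa and Zelda. Massa, the highest KO tumor, and the N25 tumor, the lowest WT tumor, are those with high lung markers, and without Massa the log2 fold change was −3.31. KO averaged 8.65 ± 4.58 CPM against 70.7 ± 24.7 CPM in WT (SD, n = 8 each), and with all tumors the log2 fold change of −3.13 (SE 0.34) lay between −3.49 and −2.91 over the 24 alternatives run.

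**Figure D1:**
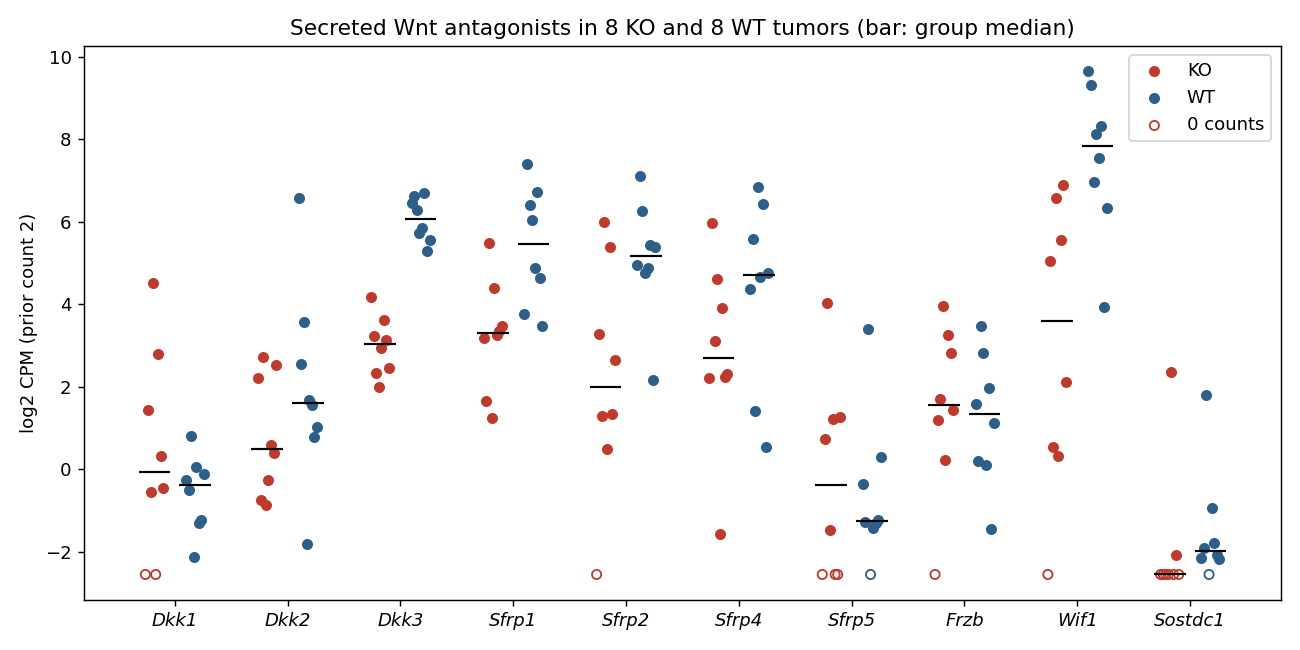
Log2 CPM (prior count 2) of the 10 antagonists in each tumor, KO in red and WT in blue, with the group median as a bar and open circles for 0 counts. The *Dkk3* values of KO (3.82 to 17.8 CPM) and WT (39.0 to 104 CPM) do not overlap, while those of the other 9 genes do.

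Stromal and myeloid markers, like *Dkk3*, were lower in KO as a group. Massa, the shallowest KO library, had the highest *Dkk3* of the KO tumors (17.8 CPM, 8 counts) and their lowest fibroblast and macrophage sums. All 8 fibroblast markers (*Pdgfra*, *Pdgfrb*, *Dcn*, *Lum*, *Thy1*, *Postn*, *Fap*, *Col3a1*) had negative log2 fold changes, 3 of them past edgeR's threshold, and their summed level ran from 486 to 3512 CPM in KO and from 1636 to 28972 CPM in WT. All 8 macrophage markers were also on the negative side, 7 past the threshold, with sums of 120 to 505 CPM in KO and 296 to 1745 CPM in WT. These calls stand beside 2.15% lower among all genes tested and take tumors of the same WT mouse as independent, and the calls over all genes fell from 618 to 17 with the mouse as a random effect, 10 with counts summed per mouse and 8 without N42. In Massa 2 of the fibroblast and 3 of the macrophage markers had 0 counts, and in the other 15 tumors none had. The fibroblast sum was below every WT tumor in 7 of the 8 KO tumors, and in the eighth, Medusa (3512 CPM), it was above 4 WT tumors. The macrophage sum was below every WT tumor in 5 KO tumors, above the N25 tumor alone in Montana and Ohio, and above the N25 and N215 tumors in Zelda (505 CPM). The osteoblast sum was below every WT tumor in 3 KO tumors and above 1 to 6 WT tumors in the other 5, of which Grilka (42388 CPM) was the highest. The part of cell content in the *Dkk3* level was not tested. Across the 16 tumors Spearman's rho of *Dkk3* with the marker sum was 0.78 for fibroblast, 0.63 for osteoblast, 0.62 for macrophage and 0.60 for lung markers. These values describe tumors that also differ in genotype and depth, and they were not computed within each group.

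**Figure D2:**
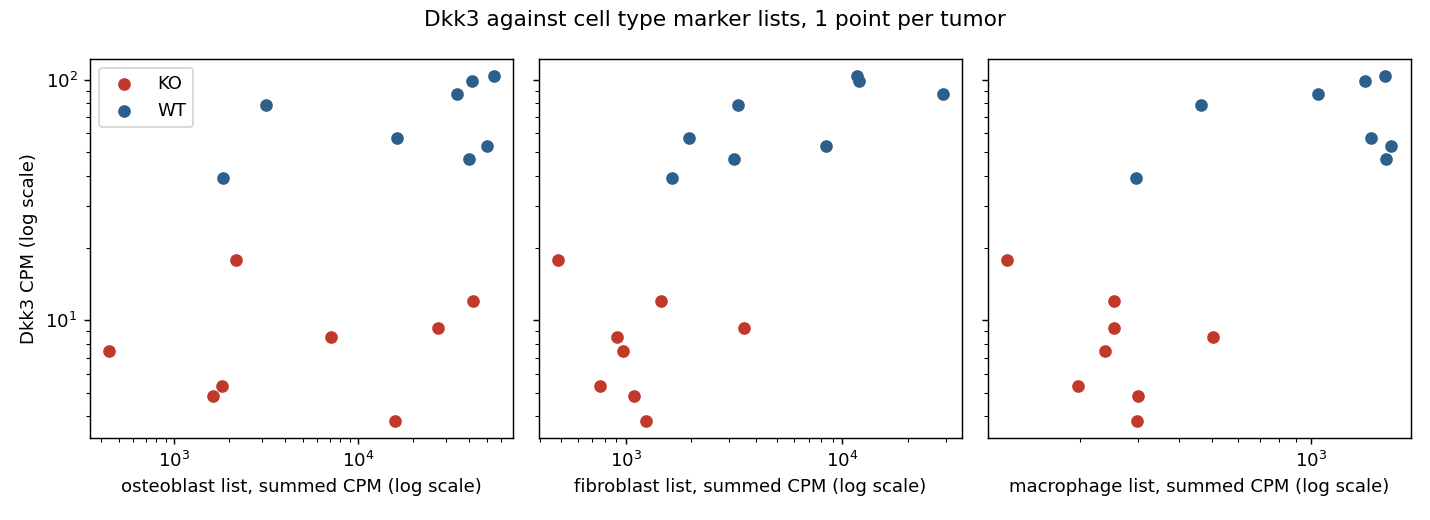
*Dkk3* in CPM against the summed CPM of 9 osteoblast, 8 fibroblast and 8 macrophage markers, both on log scales, with 1 point per tumor (KO red, WT blue). The fibroblast sums of 7 KO tumors and the macrophage sums of 5 lie below every WT tumor, as do the osteoblast sums of 3, and the *Dkk3* level of all 8 lies below every WT tumor.

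*Dkk1* and *Dkk2*, the Dickkopf members that act on LRP5 and LRP6, had other patterns. *Dkk1* (chromosome 19, 30545863 to 30549665) was scarce in WT, from 0.0568 to 1.59 CPM, or 1 to 17 counts. Among the KO tumors it reached 22.8 CPM in Ohio (239 counts), 6.71 CPM in Grilka (5 counts) and 2.53 CPM in Medusa (12 counts), all above every WT tumor, and Massa and Prince had 0 counts. Ohio alone held 58.2% of the *Dkk1* CPM summed over the 16 tumors. *Dkk2* (chromosome 3, 132085292 to 132180304) was high in a single WT tumor, the N43 spine tumor, with 95.8 CPM (1743 counts). The pelvis tumor of the same mouse had 1.86 CPM, and the next highest tumor, the N215 hind limb, had 11.8 CPM. KO tumors had 0.382 to 6.38 CPM of *Dkk2* with a median of 1.25, and the WT median was 2.90, so the groups overlapped. The log2 fold change of *Dkk2* was −2.68 (SE 1.09) with the spine tumor and −0.67 without it.

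*Wif1* was the most abundant antagonist per length of exon in 7 of 8 WT tumors. WIF1 binds Wnt ligands through its WIF domain and is made in bone by the osteoblast lineage. The gene lies on chromosome 10, from 121033960 to 121100650. WT tumors had a lowest level of 15.2 CPM in the N25 lung tumor, a median of 233 CPM and a highest level of 808 CPM in the N43 spine tumor. The KO tumors had 0 counts in Massa, 1.08 CPM in Prince, 1.28 in Montana, 4.19 in Oregon, 33.2 in Medusa, 47.0 in Grilka, 94.9 in Ohio and 120 in Zelda. The lowest 4 lay below every WT tumor, and the other 4 lay within the WT range. Those 4 low tumors had osteoblast marker sums of 445 to 2170 CPM, the 4 others 7088 to 42388 CPM, and the part of osteoblast content in the *Wif1* level was not tested. In Massa the floor of 3 counts is 6.69 CPM, so a level up to this could not be seen. The log2 fold change of *Wif1* was −3.01 (SE 0.99), from −3.55 to −2.30 over the alternatives.

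*Sfrp2* and *Sfrp1* were also abundant in WT. Both encode proteins with the cysteine-rich domain of the Frizzled receptors, which binds Wnt ligands. *Sfrp2* (chromosome 3, 83766321 to 83774316) ran from 4.32 CPM in the N25 lung tumor through a median of 36.3 to 138 CPM in the N42 right pelvis. In KO it ran from 0 counts in Massa through a median of 4.26 to 64.2 CPM in Ohio, and Ohio and Grilka (41.6 CPM) lay above the WT median. Its log2 fold change was −1.62 (SE 0.83), −2.58 without Ohio, −1.19 without the N42 right pelvis tumor, and −0.45 when only Medusa and Ohio stood for KO. *Sfrp2* overlaps *Gm26771*, an antisense gene on the opposite strand, and the sources used here do not say whether the counting used strand. *Sfrp1* (chromosome 8, 23411502 to 23449632) ran from 10.9 CPM in the N43 pelvis through a median of 47.6 to 170 CPM in the N42 right pelvis. All 8 KO tumors were below that median, from 2.19 CPM in Ohio to 44.4 CPM in Montana, and 5 of them were below every WT tumor. The log2 fold change of *Sfrp1* was −2.18 (SE 0.66), −1.25 without the 4 tumors of N42, and −4.68 when only Medusa and Ohio stood for KO. *Sfrp1* and *Sfrp2* did not take the same order among KO tumors: Ohio had the lowest *Sfrp1* and the highest *Sfrp2*, and Montana had the highest *Sfrp1* with 2.30 CPM of *Sfrp2*.

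The promoters of *Wif1*, *Sfrp2* and *Dkk2* are shown because *Wif1* and *Sfrp2* each had 4 KO tumors below every WT tumor, while *Dkk2* had the widest range (843-fold) of the members found in every WT tumor. For *Sfrp2* these KO tumors include Massa with 0 counts. The floor of 6.69 CPM in Massa lies above the lowest WT value of *Sfrp2*, 4.32 CPM, so its place there could not be seen. CpG sites are where such promoters are known to be methylated. RefSeq (GRCm38.p6) gave a start for 6 of the 10 genes (*Dkk1*, *Dkk2*, *Frzb*, *Sfrp2*, *Sfrp5*, *Wif1*). Bases upstream of the start, cut at the GENCODE gene start for *Wif1* (206 bases) and 250 long for the others, are printed 5′ to 3′ on the gene's strand, with CpG sites in capitals, for chr10:121033754-121033959 (*Wif1*), chr3:83766071-83766320 (*Sfrp2*) and chr3:132085042-132085291 (*Dkk2*), all on the plus strand.
Wif1: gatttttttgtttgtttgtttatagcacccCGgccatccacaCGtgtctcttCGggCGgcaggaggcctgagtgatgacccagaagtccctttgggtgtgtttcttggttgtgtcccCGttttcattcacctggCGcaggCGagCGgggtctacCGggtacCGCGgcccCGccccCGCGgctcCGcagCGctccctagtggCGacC
Sfrp2: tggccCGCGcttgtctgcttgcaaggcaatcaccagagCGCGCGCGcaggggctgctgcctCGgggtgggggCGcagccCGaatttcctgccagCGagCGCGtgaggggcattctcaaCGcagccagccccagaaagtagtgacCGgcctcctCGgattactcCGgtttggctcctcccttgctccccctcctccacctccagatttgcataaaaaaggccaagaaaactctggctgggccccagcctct
Dkk2: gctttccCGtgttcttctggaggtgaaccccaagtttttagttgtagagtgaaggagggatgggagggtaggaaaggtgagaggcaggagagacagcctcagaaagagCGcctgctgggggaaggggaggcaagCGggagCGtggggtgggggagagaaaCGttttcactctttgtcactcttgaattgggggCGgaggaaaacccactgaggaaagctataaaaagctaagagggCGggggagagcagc
In the 250 bases before the RefSeq start *Wif1* had 21 CpG sites, *Sfrp2* and *Frzb* 16, *Sfrp5* 13, *Dkk2* 7 and *Dkk1* 6, and the median of 32851 promoter windows was 6. Of all windows, 83.7% had fewer than *Wif1* and 49.6% fewer than *Dkk1*. Of the 250 bases, 229 in *Frzb*, 169 in *Dkk1* and 44 in *Wif1* lie within the GENCODE gene. The bases before the GENCODE start held 2, 1 and 17 CpG sites in these genes. The sequence CTTTGAT, the core bound by TCF and LEF factors, searched on both strands, was in 3.21% of all windows and in none of the 6, which says only that these letters are not in these windows. Methylation was not measured in these tumors.

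*Sfrp4*, known for its role in cortical bone, lies on chromosome 13, from 19623104 to 19632994. It was highest in the N42 tumors of the right femur (115 CPM) and left shoulder (86.7 CPM), and lowest in WT in the N25 lung tumor (1.29 CPM) and the N215 hind limb tumor (2.50 CPM). In KO it ran from 0.166 CPM in Prince through a median of 6.59 to 62.5 CPM in Medusa, so the groups overlapped over most of their range. The log2 fold change of *Sfrp4* was −1.36 (SE 0.89) with all tumors, 0.32 without the 4 tumors of N42 and 0.04 when only Medusa and Ohio stood for KO, so that its sign depends on the tumors included. *Frzb*, which is also called *Sfrp3* and is known from developing cartilage, lies on chromosome 2, from 80411970 to 80447625. It had a median of 2.79 CPM in KO and 2.40 CPM in WT. The highest *Frzb* levels were in Ohio (15.5 CPM) and the N215 hind limb (10.9 CPM), and the log2 fold change was 0.56 (SE 0.73) with all tumors and 0.002 without Ohio.

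*Sfrp5* and *Sostdc1* were near the floor in most tumors. *Sfrp5*, known as a product of fat cells, lies on chromosome 19, from 42197971 to 42202252. It had 16.3 CPM (64 counts) in Montana and 10.4 CPM (92 counts) in the N215 hind limb, and at most 2.24 CPM in the 14 others. The 4 adipocyte markers summed to 975 CPM in Montana, the highest of the 16 tumors, and to 46.2 CPM in the N215 tumor, where the WT median was 55.3 CPM. Over the 16 tumors Spearman's rho of *Sfrp5* with the marker sum was 0.61 for skeletal muscle, 0.55 for salivary gland and 0.52 for adipocyte markers. The part of these tissues in the *Sfrp5* level was not tested. *Sostdc1* (chromosome 12, 36314139 to 36318452), whose product binds LRP6 and bone morphogenetic proteins and is known from epithelia, had 60 counts in Prince (4.98 CPM) and 29 counts in the N215 hind limb (3.29 CPM). In the other tumors it had 0 to 7 counts. Prince is also the tumor with the salivary gland markers, all 9 of which had counts there, and their part in the *Sostdc1* level was not tested.

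Levels of different genes were compared as CPM per kilobase of exon. The 10 antagonists together ran from 9.62 CPM per kilobase in Massa through a median of 32.9 to 90.8 in Ohio among KO tumors, and from 26.7 in the N25 lung tumor through a median of 167 to 410 in the N42 right pelvis among WT tumors. *Wif1* held 35.5% to 81.5% of this sum in the 7 WT tumors that it led. In the N25 lung tumor *Dkk3* led with 43.6%, followed by *Wif1* with 23.5%. Several genes led among the KO tumors. These came from 8 mice against 4 for WT and differed in depth and tissue content, so the variety of leading genes cannot be compared between the groups. *Wif1* led in Zelda (83.2%), Ohio (43.1%) and Grilka (35.9%), *Sfrp1* in Prince (38.3%) and Montana (38.1%), *Sfrp4* in Medusa (38.3%), *Sfrp2* in Oregon (21.2%) and *Dkk3* in Massa (55.2%). The Massa share rests on 2 genes with more than 3 counts, and in Grilka *Sfrp2* held 35.8%, next to *Wif1* with 35.9%.

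**Figure D3:**
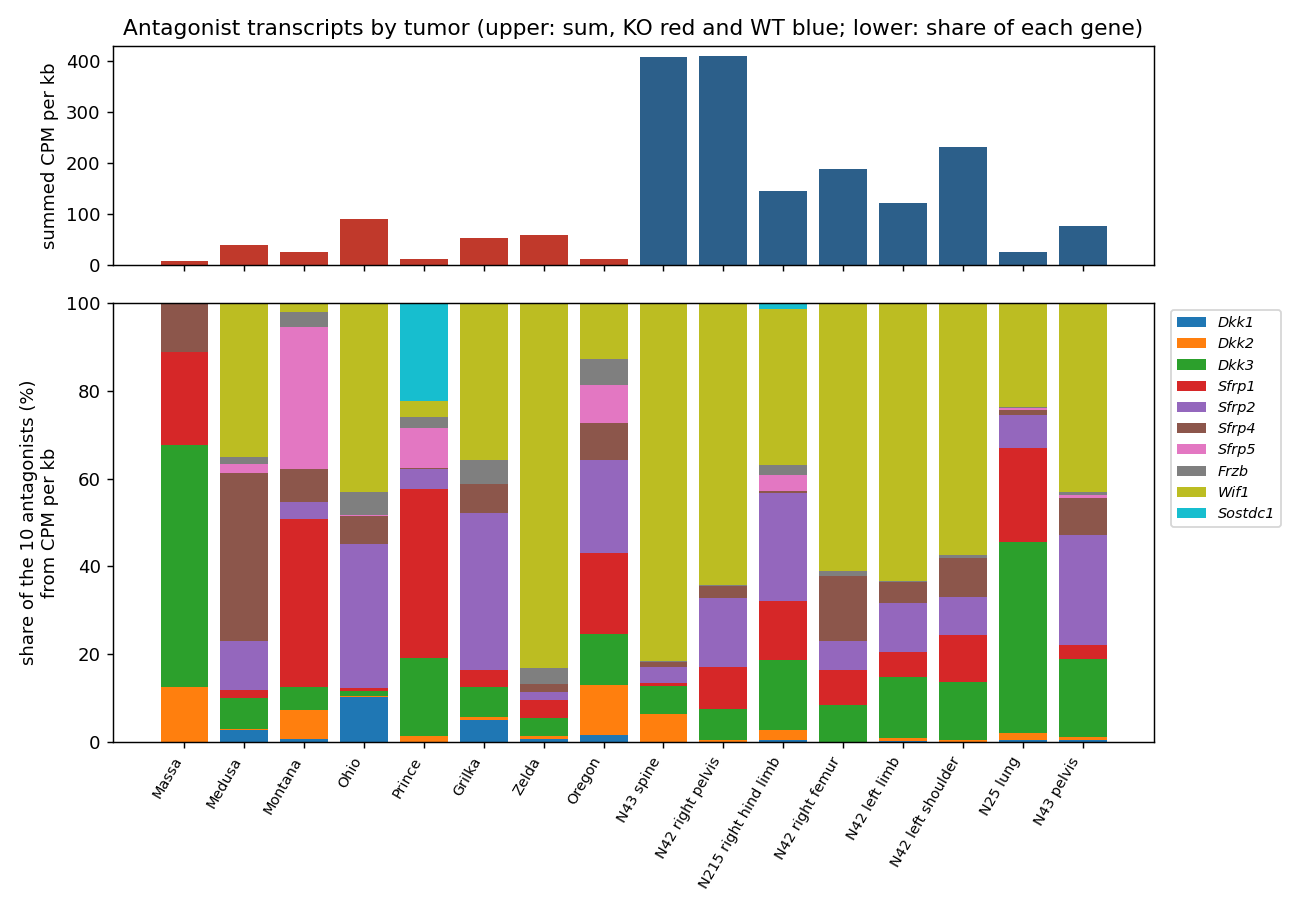
Upper bars give the summed CPM per kilobase of the 10 antagonists in each tumor (KO red, WT blue), and lower bars the share of each gene in percent. The sum ran from 9.62 to 90.8 in KO and from 26.7 to 410 in WT, and *Wif1* held the largest share in 7 WT and 3 KO tumors.

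Tumors of the same mouse show how far an antagonist can vary at 1 genotype. In N42 the highest over the lowest of the 4 tumors was 1.95-fold for *Dkk3*, 3.40-fold for *Wif1*, 4.59-fold for *Sfrp4*, 5.13-fold for *Sfrp2*, 5.81-fold for *Sfrp1*, 7.56-fold for *Frzb*, 15.1-fold for *Dkk1* (1 to 17 counts) and 50.1-fold for *Dkk2* (2 to 117 counts). In N43 the spine tumor had 1.86-fold the *Dkk3*, 9.95-fold the *Wif1* and 51.6-fold the *Dkk2* of the pelvis tumor, while *Sfrp1*, *Sfrp2*, *Sfrp4* and *Frzb* differed by 1.24 to 1.40-fold. On the log2 scale the SD within a mouse was 0.54 for *Dkk3* and the SD of the 4 mouse means was 0.46. For *Sfrp4* the SD was 0.85 within and 2.53 between mice, and for *Dkk2* it was 2.58 within and 1.62 between. Site and mouse cannot be told apart beyond N42 and N43, since each of the other sites comes from a mouse of its own.

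**Figure D4:**
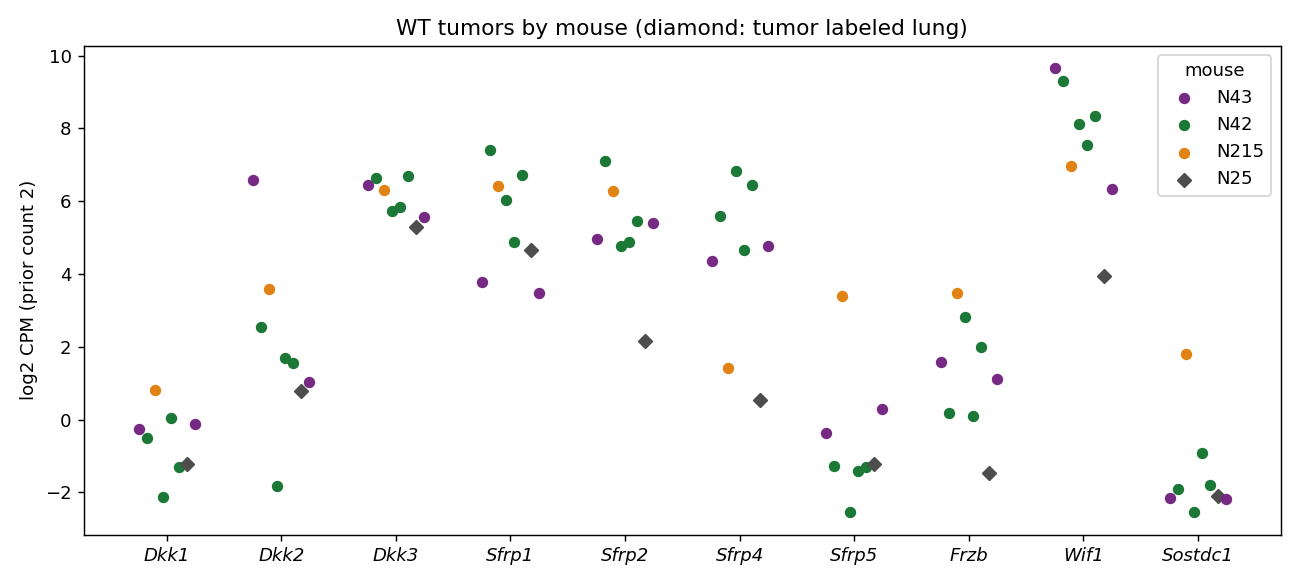
Log2 CPM (prior count 2) of the 10 antagonists in the 8 WT tumors, colored by mouse, with a diamond for the tumor labeled lung. *Dkk3* spans 2.67-fold over all 8, and *Dkk2* differs 51.6-fold between the 2 tumors of N43.

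Across the 16 tumors the antagonists did not move as a block. Of the 45 pairs, 29 had a Spearman's rho above 0 over log2 CPM, and 17 had the same sign within the KO as within the WT tumors. The highest were 0.73 for *Dkk3* with *Wif1* and 0.73 for *Sfrp2* with *Wif1*. Within the 8 WT tumors *Dkk3* and *Wif1* had a rho of 0.81, and within the 8 KO tumors it was −0.21. *Sfrp2* and *Wif1* had 0.76 in KO and 0.38 in WT. *Dkk1* with *Sfrp2* had 0.97 within KO and 0.33 within WT. In KO, however, *Dkk1* had 3 counts or fewer in 4 of 8 tumors, and Massa had 0 counts of both genes. *Sostdc1*, among the pairs counted, had 0 counts in 6 KO tumors. These values describe 16 libraries that differ in depth and tissue content, with WT tumors from the same mice among them.

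The 5 tested genes whose log2 CPM ranked most like that of *Dkk3* over the 16 tumors were *Col8a2* (rho 0.92), *Ptgfrn* and *Mcub* (0.91 each), and *Tbl1x* and *Ptgfr* (0.90 each). *Col8a2* encodes a chain of type VIII collagen, *Ptgfr* the prostaglandin F receptor and *Ptgfrn* a membrane protein that associates with it. *Mcub* encodes a subunit of the mitochondrial calcium uniporter, and *Tbl1x* a part of the NCoR corepressor complex. Because *Dkk3* separates KO from WT, a high rho over the 16 tumors partly restates that contrast. All 5 had negative log2 fold changes, from −4.88 (*Col8a2*) to −0.61 (*Tbl1x*). Within the KO tumors alone their rho with *Dkk3* was 0.64 to 0.81, and within WT 0.55 to 0.71. These genes were picked on the same tumors, so no shared regulation is read from them. *Col8a2* had 5.29 ± 4.23 CPM in KO and 143 ± 222 CPM in WT, and *Tbl1x* had 88.1 ± 25.7 and 134 ± 22.1 CPM (SD, n = 8 each).

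The rest of the pathway was compared in edgeR's two-sided quasi-likelihood test with Benjamini-Hochberg adjustment over all 15413 genes. This test takes tumors of the same WT mouse as independent. The pathway lists, too, were chosen with earlier results of these data known, so the counts describe these lists and are not an independent test. Of 58 tested pathway genes outside the 10 antagonists, 11 were lower in KO past the threshold and 0 were higher, or 11 and 1 with DESeq2's size factors in edgeR. Of all genes tested 2.15% were lower and 1.86% higher. Without adjustment 19 of the 58 were lower and 2 higher with p under 0.05, against 1503 and 2043 of all 15413 genes. DESeq2 called 19 lower and 2 higher of the 67 it tested, against 958 and 1559 of 20078 genes. Without Massa and Grilka edgeR called 9 and 2 of 59, against 399 and 491 of 16610 genes. With Medusa and Ohio alone as KO edgeR called 0 lower and 1 higher of 65, against 287 and 571 of 19260 genes. Before adjustment 21 of these 65 had a p-value under 0.05, against 4728 of the 19260. The median log2 fold change of the 58 was −0.60, against 0.10 over all genes tested. When counts were summed per mouse none of the pathway genes was past the threshold in edgeR. Before adjustment 19 of 60 had a p-value under 0.05, against 1262 of 16007 genes. Without the 4 tumors of N42 there were likewise 0 (18 of 60 unadjusted, against 1283 of 16050 genes). With limma voom, taking the mouse as a random effect, there were 0 (11 of 58 unadjusted, against 1371 of 15413 genes). The fit without N42 still takes the tumors of N43 as independent. Because these fits also differ in sample number or method, the part of the mouse in the loss of calls cannot be told apart.

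Other inhibitors of the pathway held 4 of the 11 calls among 9 genes tested, all lower in KO, and a median log2 fold change of −1.20. *Notum*, a secreted enzyme that removes the lipid from Wnt ligands, had 0 to 2.29 CPM in KO and 3.01 to 66.5 CPM in WT (log2 fold change −4.59, SE 0.75, edgeR adjusted p = 0.00476). All KO values were below all WT values, which was so for 2 of the 58 pathway genes and 0.208% of all genes tested. However, 4 KO tumors had 3 counts or fewer. In Massa and Grilka 3 counts equal 6.69 and 4.03 CPM, above the lowest WT value, so overlap there could not be seen. *Apcdd1*, a membrane inhibitor and target gene, had a median of 7.47 CPM in KO and 109 CPM in WT (log2 fold change −3.55, edgeR adjusted p = 0.0159). *Tpbg* and *Draxin* were lower by log2 fold changes of −2.61 and −4.56 (edgeR adjusted p = 0.0189 and 0.0376), and *Draxin* had 3 counts or fewer in 6 KO tumors. *Kremen1*, the Dickkopf co-receptor, with the highest mean CPM of these genes over all 16 tumors but not in WT alone, was not past the threshold at −1.20 (edgeR adjusted p = 0.0841).

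Ligands had 4 calls among 12 tested genes of Wnt ligands and R-spondins, again all lower in KO, and a median log2 fold change of −1.70. *Wnt5a*, the main non-canonical ligand, had 2.23 to 30.2 CPM in KO and 22.7 to 128 CPM in WT (log2 fold change −2.06, SE 0.48, edgeR adjusted p = 0.0253). *Wnt5b* (−2.10), *Wnt2b* (−2.44) and *Wnt7b* (−4.35) had negative log2 fold changes too (edgeR adjusted p = 0.0460, 0.0178 and 0.0146), with 3 counts or fewer in 2, 4 and 6 KO tumors. *Wnt4*, which had the highest mean CPM of the list over all 16 tumors, was not past the threshold (log2 fold change 0.64, edgeR adjusted p = 0.667) and reached 252 CPM in Prince. In WT *Wnt5a* had the higher mean, 57.1 against 31.5 CPM.

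Among 16 receptor genes tested, with a median log2 fold change of −0.55, 2 were lower in KO. *Fzd1* had 6.69 to 36.3 CPM in KO and 20.4 to 679 CPM in WT (log2 fold change −3.58, SE 0.65, edgeR adjusted p = 0.00945), and *Ror1*, a receptor of Wnt5a, was lower by −2.28 on that scale (edgeR adjusted p = 0.0154). The co-receptor *Lrp6*, on which Dkk1 acts, had 153 ± 60.3 CPM in KO and 178 ± 60.9 CPM in WT (SD, n = 8 each), or −0.22 as log2 fold change (SE 0.27). Of the 13 genes of ligand secretion and intracellular signaling none was past edgeR's threshold, 2 had a p-value under 0.05 before adjustment, DESeq2 called 2, and the median log2 fold change was −0.05. *Ctnnb1*, which encodes beta-catenin, had a log2 fold change of −0.04 (SE 0.30). Of 8 target genes, with a median log2 fold change of −1.30, 1 was past the threshold, *Axin2*, the feedback inhibitor often used as a readout of the pathway, with 6.64 to 27.5 CPM in KO and 12.5 to 56.6 CPM in WT (log2 fold change −1.33, SE 0.35, edgeR adjusted p = 0.0408). *Ccnd1*, with the highest mean CPM of the targets over all 16 tumors but not in KO alone, was not past it at −1.56 (edgeR adjusted p = 0.0789).

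**Figure D5:**
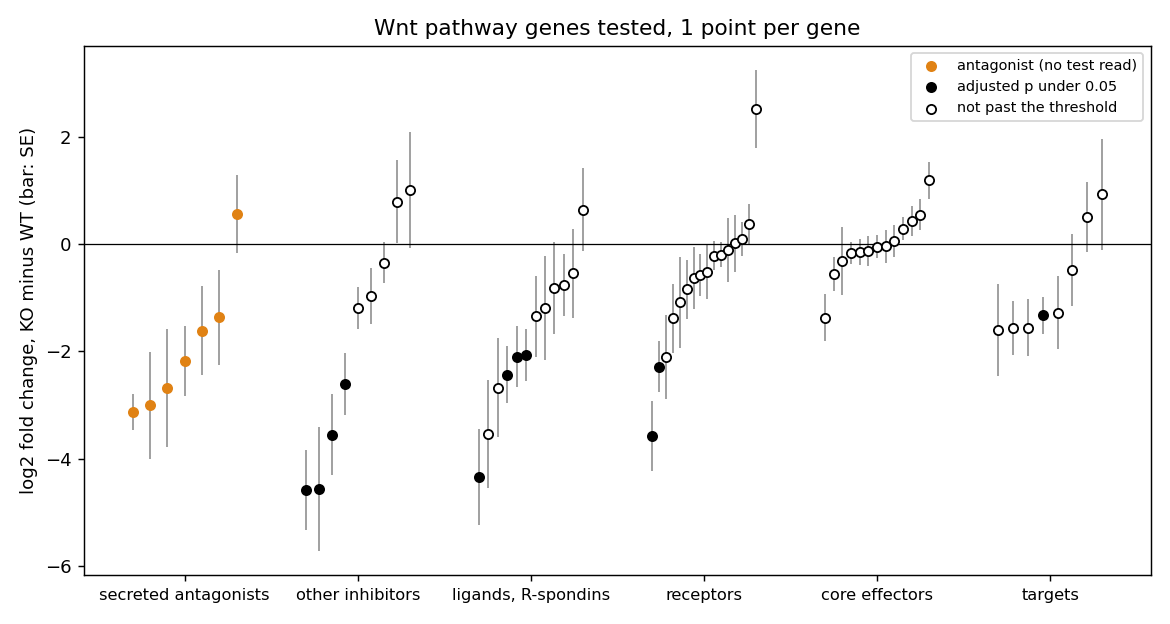
Log2 fold changes, KO minus WT, with the SE as bars, for the 7 antagonists and 58 other Wnt pathway genes tested, with filled black points for an edgeR adjusted p-value under 0.05. All 11 filled black points are below 0 (with DESeq2's size factors 1 of 12 was above), and the antagonists are colored apart because their contrast chose the list. The other lists were also chosen with earlier results of these data known.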

How the data were processed

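RNA of 16 osteosarcomas was measured. The authors aligned single-end reads with Novoalign 2.08.01 to mm10 with Ensembl junctions, allowing many alignments per read and keeping the best, and deposited raw counts per gene, made with USeq before DESeq2. Multiply aligned reads can shift between near-identical genes. Groups were taken from the genotype labels. The members and gene lists were chosen with earlier results of these data known. Named outside the members are, per pathway list, the genes past the threshold (at most 4) and the most abundant one, and the 5 genes most like *Dkk3*. Counts were analyzed with edgeR 4.0.16 in R 4.3.3 (TMM, filterByExpr with a minimum count of 10 and total of 15, glmQLFit, glmQLFTest, Benjamini-Hochberg, threshold 0.05). Log2 CPM used a prior count of 2. Exon lengths and positions came from GENCODE vM21 (GRCm38). DESeq2 1.42.0, limma 3.58.1 (voom, duplicateCorrelation), other scaling, no filter, sums per mouse and leaving out tumors were alternatives. Fits were tested on simulated data.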

Additional observations from a re-analysis of the deposited data

Results flagged for a closer look

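Of the 20 sets of 8 tumors screened (10 genes, KO and WT), 2 held a tumor far from the others on the log2 CPM scale, both for *Sostdc1*. In KO the gap from Prince to the next tumor was 0.902 of the range of the group, with 60 counts (4.98 CPM) in Prince and 0 or 1 count in the other 7. In WT the gap from the N215 hind limb tumor was 0.627 of the range, with 29 counts (3.29 CPM) there and at most 7 in the others. Both are above Dixon's critical value (95%) for 8 samples. In general chance flags about 1 in 20 groups, but this rate does not apply here, since 6 KO tumors with 0 counts share 1 floor value on the log2 scale and most WT tumors lie close to it, so that any tumor with more counts stands apart.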

How the results depend on the processing

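In the order of all genes, antagonists and other pathway genes past the threshold, edgeR gave 618, 1 and 11. DESeq2 gave 2517, 5 and 21, limma voom, taking the mouse as random, 17, 1 and 0, counts summed per mouse 10, 1 and 0, the fit without the 4 tumors of N42 8, 1 and 0, and Medusa and Ohio against WT 858, 2 and 1, the pathway gene being higher in KO. Leaving out 1 tumor at a time gave 252 to 1348 genes, 1 to 2 antagonists and 7 to 14 pathway genes. The lowest of all genes came without the N42 left shoulder tumor and the highest without Zelda. *Dkk3*, around which the list was built from this contrast, is among the antagonists counted in each fit, and nothing is read from this. The others counted in DESeq2 were *Sfrp1* and *Wif1*, lower in KO, and *Dkk1* and *Sfrp5*, higher in KO (log2 fold changes 2.87 and 2.88). In edgeR they were *Dkk1* with Medusa and Ohio alone (higher, 4.33), *Sfrp1* without Montana (lower) and *Wif1* without Zelda (lower). Without the filter edgeR gave 2.82 for *Dkk1* and 0.845 for *Sfrp5*, and neither was past the threshold. The log2 fold change of *Dkk2* was −0.58 in DESeq2 and −5.25 for Medusa and Ohio. *Sfrp4* was below 0 in 22 of 24 alternatives, and the other 6 fitted members kept their sign. The median over all genes moved from 0.10 to 0.13 with DESeq2's size factors. No paired analysis was possible because no mouse gave tumors to both groups. Depth limits what can be said of the low members in KO, where 3 counts reach 6.69 CPM.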
